A study of Mus musculus with 3 samples.

Results

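Effector CD8 T cells are the killer T cells that have met their antigen. In these liver tumours they were chosen by their transcripts, counted as unique molecular identifiers (UMIs, 1 per captured mRNA molecule). Each cell had 200 or more genes, and mitochondrial UMIs made up no more than 10%. It carried at least 2 UMIs of the CD3 genes Cd3d, Cd3e and Cd3g together, at least 1 of the CD8 genes Cd8a and Cd8b1, and at least 3 of the chemokine gene Ccl5. It carried no UMI of Cd4, Foxp3, Ncr1 or Cd79a and at most 1 of the division genes Mki67 and Top2a. The rule gave 2951 cells of 36386, with 1495 in DU101, 1035 in DU102 and 421 in control. These genes defined the set, so their levels are no finding.

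After activation, a CD8 T cell leaves the lymph node, loses the lymph node homing receptors of naive cells and gains granzymes, perforin and chemokines such as Ccl5. In tumours, where antigen persists, many such cells take on inhibitory receptors, among them PD-1 (gene Pdcd1), under the transcription factor Tox. In the liver, Cxcr6 marks T cells that stay in the organ.

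Live CD45+ immune cells had been sorted from freshly collected liver tumours of C57BL6 MYC-ON mice that were 18 weeks old and sequenced with the 10x 3′ v3 method. The groups were DU101, DU102 and control, with 1 library each, all from MYC-ON tumours. The labels do not say what DU101 and DU102 are, what the control mice received, which promoter drives MYC or how many mice went into a library. The control data are named DMSO, a common drug solvent. No test between the 3 groups was therefore possible, and their differences are described by size.

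The libraries held 14257 cells in DU101, 11710 in DU102 and 10419 in control after filtering, with 91013198 to 106604935 UMIs each. Pairs of libraries shared 25 to 45 cell barcodes. Effector CD8 T cells were shallower in the treated libraries, with a median of 4177 UMIs in DU101, 4880 in DU102 and 5819 in control. Scrublet called 4.41% of them doublets in DU101, 2.71% in DU102 and 5.23% in control.

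The label's other markers were present in all 3 libraries. Gzmk, the gene of granzyme K, was at 182 CPM (UMIs scaled to the same total in every library and cell set) in DU101, 204 in DU102 and 112 in control. In B cells, which should lack it, it was at 0.352, 1.20 and 0.295 CPM in DU101, DU102 and control. Cells thinned to 2000 UMIs before selection carried a Gzmk UMI in 36.1, 38.6 and 27.8% of 1231, 870 and 324 cells in DU101, DU102 and control; unthinned, these shares were 47.0, 55.2 and 39.9%. For Pdcd1 the thinned shares were 15.8, 30.0 and 17.6%, and the unthinned ones 22.2, 41.2 and 24.5%, in DU101, DU102 and control. For Cxcr6 they were 42.7, 32.3 and 33.6% thinned and 56.0, 50.7 and 51.3% unthinned, in the same order of libraries. At most 0.93% of B cells in any library carried a UMI of Gzmk, Pdcd1 or Cxcr6, at median depths of 6769.5, 3210.5 and 3396.5 UMIs in DU101, DU102 and control. So most of the cells carried no Pdcd1 UMI at this depth, which does not show that they lack it.

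The Ccl5 threshold fell in a thin stretch. In all, 2837 otherwise eligible CD8 cells had 5 or more Ccl5 UMIs, 114 had 3 to 4 and 275 had 1 to 2. Just inside it, with 3 UMIs, were 27 cells in DU101, 19 in DU102 and 13 in control. Just outside it, with 2 UMIs, were 41, 15 and 23 cells in DU101, DU102 and control. Among genes the rule did not use, some lay in order along these classes and others did not. Cxcr6 was at 214 CPM at 5 or more Ccl5 UMIs, 72.9 at 3 to 4, 47.2 at 1 to 2 and 29.3 at none. Gzmk was at 185, 41.3, 15.4 and 6.39 CPM in the same classes. Lef1, a naive T cell transcription factor, ran the other way, at 63.0, 134, 187 and 282 CPM. Il7r, the interleukin-7 receptor gene, was at 196, 391, 327 and 424 CPM, and Ly6c2, a surface gene of memory and effector cells, at 997, 1158, 1098 and 799, neither of them in order.

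The share of effector cells was higher in both treated libraries. They made up 10.5% of all cells in DU101 (exact Clopper-Pearson 95% interval 9.99 to 11), 8.84% in DU102 (8.33 to 9.37) and 4.04% in control (3.67 to 4.44). Against control that was 2.60 times the share in DU101 and 2.19 times in DU102, and 2.55 times in DU102 when cells were thinned to 2000 UMIs first. Of non-dividing CD8 T cells, 84.3% were effector cells in DU101 (82.5 to 85.9), 81.1% in DU102 (78.9 to 83.2) and 65.8% in control (62.0 to 69.5). Thinned, these were 78.0, 78.8 and 61.5%. The intervals of either treated library lay above those of control. They cover counting error only and not the spread between mice, and a share of sorted CD45+ cells also moves with every other cell type, neutrophils among them. The rule also left out dividing cells. They made up 14.7% of effector and dividing effector cells in DU101 (13.1 to 16.5), 20.1% in DU102 (18.0 to 22.4) and 22.8% in control (19.3 to 26.5). After thinning these were 7.09% (5.77 to 8.61), 7.45% (5.85 to 9.32) and 9.50% (6.67 to 13.0). The control value was highest in both, but its interval overlapped that of DU102, and after thinning also that of DU101.

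**Figure D1:**
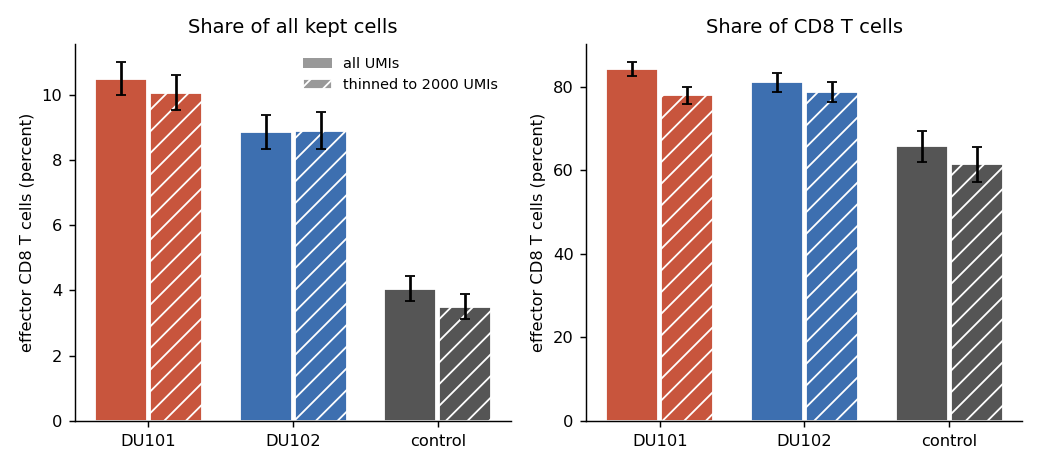
Effector CD8 T cells as a percent of all cells (left) and of non-dividing CD8 T cells (right) in DU101, DU102 and control, from all UMIs (plain bars) and from cells thinned to 2000 UMIs (hatched bars). Error bars are exact 95% Clopper-Pearson intervals, and both treated bars stand above the control bars in each panel (10.5, 8.84 and 4.04% of all cells from all UMIs).

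The control library was a mixture of cells that differed in sex-linked RNA, which bears on every comparison with it. Of its 421 effector cells, 273 carried Xist and no Y-linked RNA, 71 carried Y-linked RNA and no Xist, 23 carried both and 54 neither. In DU101 and DU102 no effector cell carried Xist, while 669 and 540 carried Y-linked RNA. Within control, these classes of cells differed in effector genes. Gzma, the gene of granzyme A, was at 199 CPM in the Xist cells and 1361 in the Y-linked cells. The ratio was 0.146 (95% interval 0.129 to 0.167). That interval treats UMIs as independent counts and leaves out the spread between cells, here 71 with Y-linked RNA. Gzmb, encoding granzyme B, was at 271 against 704 CPM, and Pdcd1 at 62.8 against 121. Gzmk (103 against 108 CPM) and Cxcr6 (160 against 155) stood close together. Tcf7, Id3 and Hsph1 were higher in the Xist cells, at 162 against 81.9, 68.5 against 16.8 and 359 against 108 CPM. The neutrophil gene S100a8 was at 102 against 933 CPM. Control values below are therefore followed by the value against the 71 Y-linked control cells, taken with the Y-linked cells of the treated library, where it bears on a call. Effector cells were also taken as a share of the kept cells of any type with Y-linked RNA and no Xist. That share was 2.59 times control in DU101 and 2.29 times in DU102. It also depends on how often other cell types show Y-linked RNA.

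**Figure D2:**
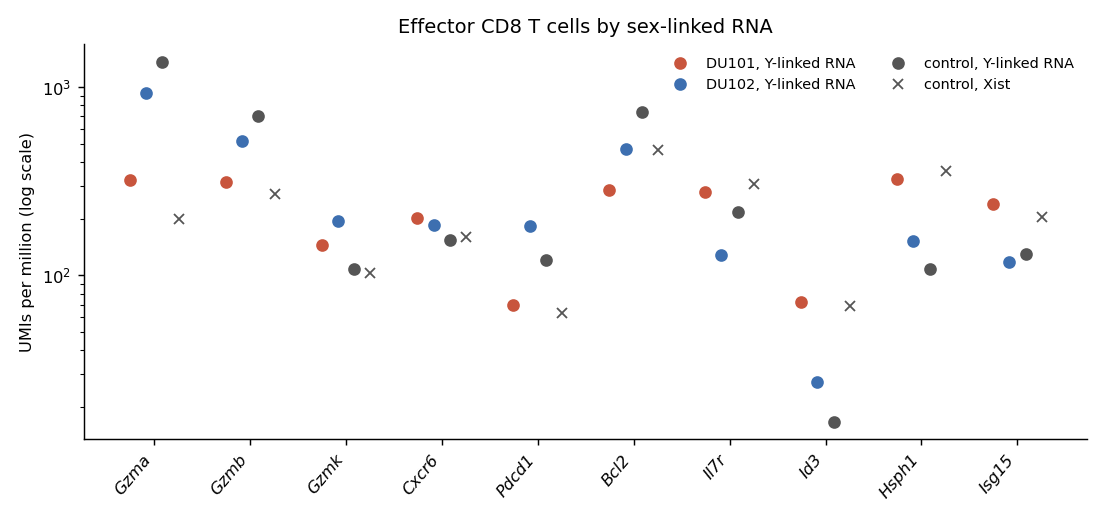
CPM (log scale) of 10 genes in effector CD8 T cells with Y-linked but no Xist RNA (filled circles) of DU101, DU102 and control, and in control cells with Xist and no Y-linked RNA (crosses). Gzma stood at 320, 929 and 1361 CPM in the circles of DU101, DU102 and control, and at 199 CPM in the control cross.

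Against CD8 T cells without any Ccl5 UMI (464 cells), effector cells were high in killing genes and inhibitory receptors and low in naive genes in all 3 libraries. UMIs were summed by library and cell set and tested with edgeR's quasi-likelihood test with the library as a block (n = 3 libraries), genes of the selection rule left out. Of 8632 genes, 506 rose (5.86%) and 480 fell (5.56%) at a Benjamini-Hochberg adjusted p under 0.05. The p-values measure only the spread between these 3 libraries.

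Of 14 cytotoxic genes tested, 13 rose. Gzmb was at 354, 513 and 377 CPM in the effector cells of DU101, DU102 and control, against 13.5, 13.8 and 11.2 CPM in the cells without Ccl5. Its log2 fold change was 4.82 ± 0.26 (SD, n = 3 libraries, edgeR adjusted p = 2.19e-12). Here and below the fold change is edgeR's estimate. The SD is that of the log2 differences in CPM between the cell sets of each library, without edgeR's normalisation. Gzma rose by 5.00 ± 0.73 on that scale and Gzmk by 4.48 ± 0.20, each higher in 3 of 3 libraries. Fasl, the ligand of a death receptor, rose by 4.09. Prf1, encoding the pore protein perforin, rose less, at 98.5, 103 and 72.2 CPM in DU101, DU102 and control effector cells against 53.0, 33.6 and 27.0 CPM without Ccl5. Among secreted factors, the chemokine gene Ccl4 rose by 3.21 and Ifng, encoding interferon gamma, by 2.74.

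Of 14 inhibitory receptor genes, 10 rose, and of 15 exhaustion regulators, also 10. Pdcd1 was at 80.3, 185 and 82.9 CPM in effector cells of DU101, DU102 and control, against 3.39, 21.7 and 2.79 CPM in the cells without Ccl5 (log2 fold change 3.47 ± 0.76, n = 3 libraries, edgeR adjusted p = 3.74e-08). Lag3, another inhibitory receptor, rose by 2.79. Entpd1, the ectonucleotidase CD39, rose by 3.10. Tox rose by 1.51 ± 0.08, with a narrow spread over the libraries. Of 15 homing genes, 12 rose and 2 fell; Cxcr6 rose by 2.54 and the lymph node receptor Ccr7 fell by 2.35. Klre1, an NK cell lectin-like receptor gene, rose by 3.55.

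Of 15 naive and memory genes, 11 fell. Lef1 was at 64.3, 64.6 and 76.5 CPM in effector cells of DU101, DU102 and control, against 222, 335 and 282 CPM in the cells without Ccl5 (log2 fold change −2.21 ± 0.31, n = 3 libraries, edgeR adjusted p = 3.52e-09). Tcf7, a transcription factor of naive and memory cells, fell by 1.45 and Il7r by 1.23. Itgae, the integrin CD103 of tissue-resident cells in epithelia, also fell (−1.49), while 7 of the 13 tissue residence genes rose. Of 26 type I interferon-induced genes, 6 rose. All 4 gamma-delta T cell receptor genes measured in the list for innate-like cells rose. Of 13 genes encoded in mitochondrial DNA, 12 fell, so lower mitochondrial RNA moved with the effector set; its part in the other changes was not tested.

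NK cells share the killing genes, and they made a second point of comparison (818 cells without CD3 RNA but with Ncr1 and Eomes). Of 9716 genes tested, 1527 were higher in effector T cells (15.7%) and 1513 lower (15.6%). The T cell genes Cd6 and Themis separated the sets almost completely. Cd6 had 2450 UMIs in effector cells and 0 in NK cells over the 3 libraries. With 3 counts put in place of 0, the ratio was 347 (95% interval 119 to 1684). Themis had 1830 UMIs against 1, a ratio of 778 (95% interval 139 to 30726), and Pdcd1 1952 UMIs against 2.

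The NK comparison also ordered the killing genes: 3 of 15 rose and 7 fell. Gzma was at 325, 906 and 583 CPM in effector cells of DU101, DU102 and control, against 6833, 8210 and 7493 CPM in NK cells (log2 fold change −3.71 ± 0.61, n = 3 libraries, edgeR adjusted p = 3.66e-10). Prf1 (−2.38) and Gzmb (−1.24) were lower too, whereas Gzmk was higher by 4.67, Cxcr6 by 5.18 and Il7r by 4.28. Nkg7, a granule gene of both cell types, was at 1777, 1929 and 1472 CPM in effector cells against 1957, 1897 and 1788 CPM in NK cells (edgeR adjusted p = 0.228). All 14 NK receptor genes fell, Klra4 with 27 UMIs against 2742. Of 29 type I interferon-induced genes, 23 rose and 1 fell; Ifi27l2a was at 1653, 924 and 941 CPM in effector cells of DU101, DU102 and control, against 273, 62.5 and 78.5 CPM in NK cells. Markers of other cells were higher in the effector set as well, with 10 of 12 macrophage and monocyte, 5 of 6 class II, 5 of 10 neutrophil and 3 of 3 erythroid genes; their part in the other differences was not tested. Of 28 nuclear oxidative phosphorylation genes, 22 fell.

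Within the effector set, the cells that carried a UMI of Pdcd1, Gzmk or Cxcr6 were compared with those that carried none, after thinning every cell to 2000 UMIs. Pdcd1 was found in 199 cells of DU101, 266 of DU102 and 57 of control. Of 5655 genes, 73 rose with Pdcd1 (1.29%) and 138 fell (2.44%). Without the DU101 library the counts were 41 and 62, and without DU102 48 genes rose.

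Cells with Pdcd1 were higher in other inhibitory receptors and in Tox. Tox was at 244, 254 and 325 CPM with Pdcd1 in DU101, DU102 and control, against 76.6, 110 and 74.8 CPM without it (log2 fold change 1.49 ± 0.45, n = 3 libraries, edgeR adjusted p = 2.52e-08). Ctla4 rose by 1.60, Lag3 by 1.33 and Entpd1 by 0.90. In all, 4 of 10 inhibitory receptor genes and 5 of 13 exhaustion regulators rose. Naive and memory genes went the other way, with 10 of 14 lower and 1, the survival gene Bcl2, higher. Il7r was at 80.4, 35.7 and 105 CPM with Pdcd1 against 232, 167 and 266 CPM without it in DU101, DU102 and control (log2 fold change −1.78 ± 0.46, n = 3 libraries, edgeR adjusted p = 2.52e-08). Satb1, a chromatin organiser of immature T cells, fell by 2.88 and Tcf7 by 1.47. The granzyme genes Gzma (adjusted p = 0.938, edgeR) and Gzmb (adjusted p = 0.156, edgeR) missed the threshold. Class II genes (4 of 5) and neutrophil genes (6 of 8) of the lists for other cell types were lower with Pdcd1; S100a8 was at 796, 1113 and 158 CPM with it, against 959, 3010 and 445 CPM without it in DU101, DU102 and control. The median depth before thinning was also lower with Pdcd1, at 3860, 4401.5 and 5012 UMIs against 4325, 5324 and 6066 in DU101, DU102 and control. Genes encoded in mitochondrial DNA were lower with Pdcd1 in 9 of 13. The part of any of these in the changes was not tested.

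Cells with Gzmk (466 in DU101, 358 in DU102 and 94 in control) were higher in granzymes as well. Of 6444 genes, 94 rose (1.46%) and 197 fell (3.06%), or 39 and 123 without the DU101 library. Gzma was at 611, 1419 and 670 CPM with Gzmk against 277, 714 and 551 CPM without it in DU101, DU102 and control (log2 fold change 0.85 ± 0.46, n = 3 libraries, edgeR adjusted p = 1.23e-10). Gzmb rose by 0.64, Tox by 1.02, Cxcr6 by 0.66 and Pdcd1 by 0.63. Prdm1, the effector transcription factor Blimp-1, rose by 0.80. Of 12 inhibitory receptor genes 6 rose, and of 14 naive and memory genes 8 fell, with Il7r lower by 1.45 and Tcf7 by 1.32. Of 15 MHC class I genes 6 rose. All 5 class II genes measured, 5 of 9 neutrophil genes and 11 of 13 mitochondrially encoded genes were lower with Gzmk. The median depth before thinning was 3882.5, 4349 and 4774.5 UMIs with Gzmk against 4558.5, 5484.5 and 6303 without it in DU101, DU102 and control, and its part was not tested.

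Cells with Cxcr6 (563, 291 and 111 in DU101, DU102 and control) were compared in the same way. Of 6627 genes tested, 75 rose (1.13%) and 149 fell (2.25%); without the DU101 library the counts were 7 and 40. Lag3 rose by 0.85 ± 0.10, being at 75.5, 87.6 and 63.1 CPM with Cxcr6 against 42.5, 45.0 and 31.0 CPM without it in DU101, DU102 and control (n = 3 libraries, edgeR adjusted p = 0.000621). Cysltr2, a leukotriene receptor gene, rose by 1.08, Cish, an inhibitor of cytokine signalling, by 0.72 and Cd38 by 0.68. Gzmk (0.59), Pdcd1 (0.61) and Tox (0.58) also rose. Of 14 naive and memory genes 10 fell, Tcf7 by 1.23. The invariant chain gene Cd74 fell by 1.23 and was 1 of 4 class II genes of 6 that fell. Of 13 mitochondrially encoded genes, 11 fell. The median depth was 3877, 4490 and 4963 UMIs with Cxcr6 against 4671, 5168 and 6365 without it in DU101, DU102 and control, and its part was not tested. The Pdcd1, Gzmk and Cxcr6 cells overlap, since each gene was higher with each of the others, and their changes are not independent of one another.

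**Figure D3:**
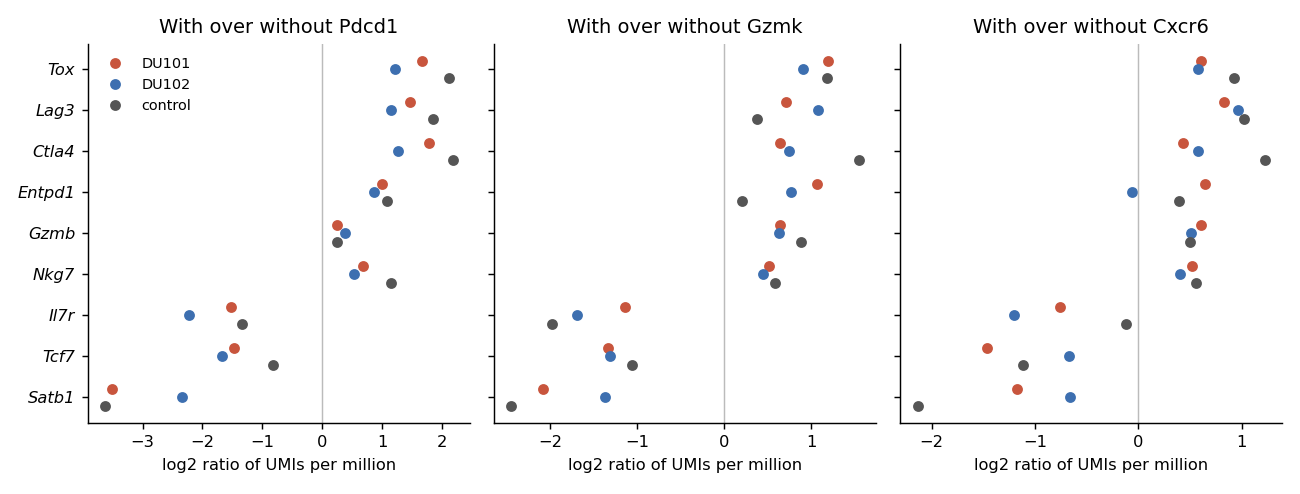
Log2 ratios of CPM between effector CD8 T cells with and without a UMI of Pdcd1 (left), Gzmk (middle) and Cxcr6 (right) after thinning, for 9 genes; each dot is 1 library. For Tcf7 all dots lie left of 0 in each panel, and for Tox and Lag3 all lie right of it.

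Between libraries, genes were called by size where the ratio of CPM was at least 1.5-fold in either direction with its exact Poisson 95% interval on that side of 1 and at least 50 UMIs over both libraries; no call is a test. DU101 against control gave 357 higher (4.09%) and 345 lower (3.95%) of 8734 genes, or 247 and 558 when mitochondrial, ribosomal, haemoglobin and immunoglobulin genes were left out of the scaling. DU102 against control gave 359 higher (4.24%) and 178 lower (2.10%) of 8473, or 231 and 294 with that scaling and 286 and 220 centred on the median gene. DU101 against DU102 gave 294 higher (3.14%) and 524 lower (5.60%) of 9353, or 352 and 408 centred. In Y-linked cells, DU101 against control gave 512 higher and 312 lower of 6586 genes. There, DU102 against control gave 421 and 152 of 6492, and DU101 against DU102 241 and 493 of 8125. Counts of calls in the gene lists below are to be read beside these counts over all genes. The intervals behind the calls leave out the spread between cells, also where a call is said below to be kept or turned. DU101 against DU102 compares libraries without Xist cells. The comparisons with control share 1 library.

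Genes with no T cell role led these lists. The lactoferrin gene Ltf was at 87.8 CPM in DU101, 210 in DU102 and 4.63 in control, and the neutrophil gene S100a8 at 1322, 4418 and 589. The summed neutrophil list stood at 3896, 12943 and 1644 CPM in effector cells and at 59209, 97512 and 18410 CPM in all cells of DU101, DU102 and control. In the same order of libraries it was at 6364, 45238 and 440 CPM in CD8 T cells without Ccl5. In NK cells it was at 4292, 3794 and 1508 CPM. Control was lowest in each of these sets, but DU101 and DU102 changed places in NK cells. Of its 10 genes, 7 were higher in DU101 than in control, 9 higher in DU102 than in control and 9 lower in DU101 than in DU102. The B and plasma cell list was at 1874, 337 and 239 CPM in effector cells (35462, 5940 and 4661 in all cells), the erythroid list at 63.7, 600 and 29.5, the hepatocyte list at 265, 184 and 119 and the macrophage list at 2123, 2056 and 1548. The 5 MHC class II genes and Cd74 summed to 1634, 1107 and 837 CPM in effector cells against 7264, 3949 and 6792 CPM in all cells. All 6 were higher in DU101 than in control, H2-Eb1 at 238 against 86.1 CPM, and none in DU102, where the list's median log2 ratio was 0.31. Against the Y-linked control cells all 6 were higher in either treated library. H2-Eb1 was then 10.8 times control in DU101 (283 against 26.1 CPM) and Cd74 7.81 times in DU102 (684 against 87.5 CPM). The part of RNA from other cells in these values was not tested. Genes named below for their own ratios were therefore taken from those at least 2 times their B cell level in the library where they were higher, beside the members of the gene lists. Genes of the lists for other cells also passed this limit. In DU102 over control these were Retnlg of the neutrophil list (580 against 152 CPM) and the macrophage genes C1qb and C1qc, and in DU101 over control C1qb. So the limit did not remove all such RNA, and not every gene that passed it is named below. Nor was the limit even between libraries. The B and plasma cell list held 325352 CPM of B cells in DU101, 77097 in DU102 and 92999 in control. That lowers the B cell CPM of other genes most in DU101, so the limit is easier to pass there. It left 2300 genes in DU101 against control, 2223 in DU101 against DU102 and 1156 in DU102 against control.

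**Figure D4:**
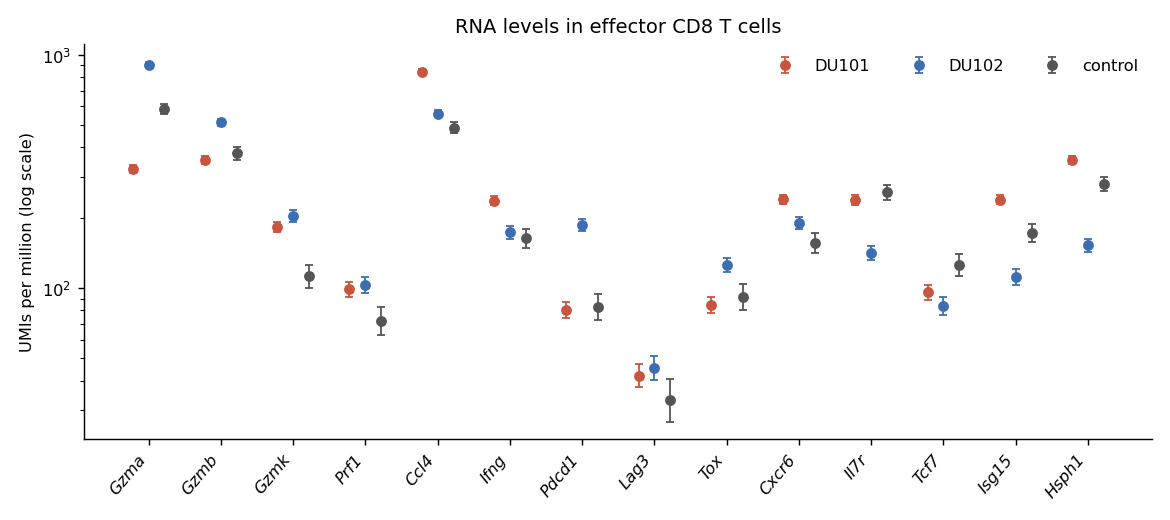
CPM (log scale) of 14 genes summed over effector CD8 T cells of DU101, DU102 and control, with exact Poisson 95% intervals of the counts. Gzma and Pdcd1 stand highest in DU102 (906 and 185 CPM), Il7r lowest there (142 CPM), and Gzmk stands above control in both treated libraries (182, 204 and 112 CPM).

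Among granzymes, Gzma differed between the treated libraries. Gzma was at 325 CPM in DU101, 906 in DU102 and 583 in control. DU101 was 0.358 times DU102 (95% interval 0.342 to 0.376) and 0.557 times control, whereas DU102 was 1.56 times control. Against the Y-linked control cells, DU101 remained lower, at 0.235 times (320 against 1361 CPM), but DU102 was at 0.683 times (929 against 1361), so its direction turned. Thinned cells carried a Gzma UMI in 15.0, 24.9 and 20.7% in DU101, DU102 and control. Gzmk was higher than in control in both treated libraries, 1.63 times in DU101 (1.44 to 1.84) and 1.82 times in DU102 (1.60 to 2.06), and 1.35 and 1.79 times in Y-linked cells. Gzmb was at 354, 513 and 377 CPM and Prf1 at 98.5, 103 and 72.2 in DU101, DU102 and control, with no call in any pair. In Y-linked cells, however, Gzmb in DU101 was 0.445 times control (313 against 704 CPM). Serpinb9, which encodes an inhibitor of granzyme B, was at 59.1, 100 and 53.4 CPM, 1.88 times control in DU102 (1.57 to 2.26) and 1.38 times in Y-linked cells (0.993 to 1.98). Of 14 cytotoxic genes, 1 was higher and 1 lower in DU101 than in control (median log2 ratio 0.11, against −0.00 over all genes), or 1 higher and 3 lower in Y-linked cells. In DU102 against control 3 were higher and none lower (median 0.38, all genes 0.05), or 2 and none in Y-linked cells. In DU101 against DU102 none was higher and 2 were lower (median −0.12, all genes −0.05). The shares over all genes were 4.09% higher and 3.95% lower in DU101 than in control, and 4.24% higher in DU102. In DU101 against DU102 they were 3.14% higher and 5.60% lower.

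Inhibitory receptors were led by Pdcd1, at 80.3 CPM in DU101, 185 in DU102 and 82.9 in control. DU102 was 2.23 times control (1.94 to 2.58) and DU101 0.433 times DU102 (0.392 to 0.479), while DU101 and control stood close. In Y-linked cells Pdcd1 was at 70.0, 183 and 121 CPM, so DU102 was 1.52 times control (1.17 to 1.99) and DU101 0.579 times. Cd244a, an NK and T cell receptor of the SLAM family, was at 15.7, 28.7 and 17.1 CPM, and Havcr2, the receptor TIM-3, at 21.7, 21.8 and 13.5. Cd244a in DU102 was 1.68 times control over all cells and 0.832 times in Y-linked cells. Lag3 (42.1, 45.3 and 33.1 CPM), Ctla4 (52.9, 60.3 and 43.8), Entpd1 (32.4, 37.3 and 30.6) and Tigit (6.08, 5.16 and 6.05) gave no call. Tox followed the order of Pdcd1, at 84.5, 125 and 91.5 CPM, without reaching 1.5-fold. Of 13 inhibitory receptor genes measured in DU102 against control, 4 were higher and none lower, but only 1 of 11 was higher in Y-linked cells. Of 14 in DU101 against control, 2 were higher and 1 lower, whereas of 12 in Y-linked cells none was higher and 3 were lower (Pdcd1, Cd244a and Cd200r1). Of 14 in DU101 against DU102, none was higher and 2 were lower. The shares over all genes were 4.24% higher in DU102 than in control and 4.09% higher and 3.95% lower in DU101 than in control. In DU101 against DU102, 5.60% of all genes were lower. Among the 15 exhaustion regulators 1 call was made in the 3 comparisons, Nr4a1, an early gene of receptor signalling, lower in DU102 than in control (59.0 against 95.4 CPM). In Y-linked cells Nr4a1 lost that call (0.908 times, 0.642 to 1.32). Of 13 regulators there, 2 were higher and 1 lower in DU101 and 4 higher and 1 lower in DU102. All genes in Y-linked cells gave 512 higher and 312 lower of 6586 in DU101, and 421 and 152 of 6492 in DU102. No call was made among the 20 T cell receptor signalling genes in either comparison with control, and 1 was made in each among Y-linked cells.

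The same step in Tox was seen between cells that had a Pdcd1 UMI and those that had none in every library. Of thinned cells with Pdcd1, 35.6% carried Tox in DU101, 39.8% in DU102 and 42.1% in control, against 14.5, 18.4 and 14.2% of those without. The share of cells with Pdcd1 was higher in DU102, whereas the share with Tox among them lay between the other libraries.

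Il7r and Bcl2 differed in opposite directions between the treated libraries. Il7r was at 238 CPM in DU101, 142 in DU102 and 258 in control. DU102 was 0.550 times control (0.497 to 0.608; 0.593 times in Y-linked cells) and DU101 1.68 times DU102 (1.55 to 1.82). Bcl2, an inhibitor of cell death, ran the other way, at 298, 511 and 528 CPM, so that DU101 was 0.564 times control and 0.387 times in Y-linked cells. Il2rb, a receptor subunit for interleukins 2 and 15, was at 216, 305 and 346 CPM, and Cdk6, a kinase of the G1 phase, at 62.9, 138 and 112. Serpina3g, encoding a serine protease inhibitor of activated T cells, was at 80.1, 166 and 168 CPM, and Sytl3, a granule transport gene, at 33.7, 52.6 and 71.2. Bcl2, Il2rb, Cdk6, Serpina3g and Sytl3 were all lowest in DU101. In Y-linked cells DU101 was 0.559 times control for Il2rb, 0.402 for Cdk6, 0.390 for Serpina3g and 0.328 for Sytl3. Id3, a transcription factor of memory cells, was at 57.7, 21.5 and 51.2 CPM; against Y-linked control cells DU102 turned from lower to higher (1.61 times). Tcf7 (95.6, 84.0 and 126 CPM) and Ccr7 (30.8, 27.3 and 38.4) were both highest in control, without a call. Within control, Tcf7 was at 162 CPM in Xist cells. In Y-linked cells Tcf7 was at 115 CPM in DU101 and 80.5 in DU102 against 81.9 in control, 1.40 times in DU101 (1.03 to 1.96). Of 15 naive and memory genes, 1 was lower in DU101 (Bcl2) and 1 in DU102 (Il7r) than in control, none higher. Among all genes 3.95% were lower in DU101 and 2.10% in DU102, so a single call of 15 is no result about the list. In Y-linked cells 2 were higher and 1 lower in DU101, with Dapl1 at 3.27 times (1.75 to 6.91) and Klf2, a transcription factor of resting T cells, at 1.83 times. In DU102 4 were higher and 4 lower, Bcl2 among the lower at 0.638 times (0.571 to 0.713). In DU101 against DU102, 1 was higher and 1 lower of 15.

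Some homing genes were higher in treated libraries, and NK-type receptor genes mainly in DU102. Of 15 homing genes, 3 were higher in DU101 and 2 in DU102 than in control, none lower. Among all genes 4.09% were higher in DU101 and 4.24% in DU102 than in control. In Y-linked cells 2 homing genes were higher in DU101, and 5 were higher and 1 lower in DU102. Cxcr6 was at 240, 190 and 156 CPM in DU101, DU102 and control, 1.54 times control in DU101 (1.39 to 1.71; 1.31 in Y-linked cells) and 1.22 times in DU102. Ccr2, a receptor for monocyte chemokines that effector T cells also carry, was at 119, 157 and 76.5 CPM, 1.55 times control in DU101 and 2.05 times in DU102 (1.46 and 1.93 times in Y-linked cells). Klrg1, a receptor of short-lived effector cells, was at 18.1, 19.8 and 10.3 CPM, but neither it nor Havcr2 kept a call in Y-linked cells. Klre1 was at 47.7, 71.1 and 32.4 CPM, 2.20 times control in DU102 and 1.71 times in Y-linked cells. Of 11 NK receptor genes, 6 were higher and none lower in DU102 than in control (median log2 ratio 0.72). Among Y-linked cells 4 were higher and 1 lower, and among cells selected after thinning 3 and 1. In DU101 against control, 2 of 12 NK receptor genes were higher, Klra7 and Klrg1, and 1 was lower (median 0.03). Klra7 turned there among cells selected after thinning. Klrc2, an activating receptor gene, was at 29.2, 65.6 and 39.5 CPM, so DU101 was 0.445 times DU102. The NK and ILC1 list summed to 638, 677 and 634 CPM in effector cells of DU101, DU102 and control, against 6162, 5664 and 5345 CPM in NK cells. The gamma-delta, NKT and MAIT list was at 124, 139 and 147 CPM. Effector cells with a UMI of Trdc, Tcrg-C1, Zbtb16 or Klrb1c were taken as innate-like. Without them 1363 of 1495 cells remained in DU101, 921 of 1035 in DU102 and 363 of 421 in control.

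Among secreted factors and co-stimulatory receptors, Ccl4 was highest in DU101, at 846 CPM against 559 in DU102 and 487 in control, 1.74 times control (1.28 times in Y-linked cells). Ifng was at 236, 173 and 163 CPM, 1.45 times control in DU101 and below the 1.5-fold limit. Cxcl10, a chemokine gene that interferon induces, was at 123, 62.8 and 119 CPM, so DU102 was 0.530 times control and DU101 1.95 times DU102. Tnfrsf9, the co-stimulatory receptor 4-1BB, was at 14.9, 34.7 and 20.3 CPM, with DU101 0.431 times DU102. Atf3, a stress-induced transcription factor, was at 89.0, 33.5 and 29.5 CPM, 3.01 times control in DU101. In Y-linked cells Atf3 was at 103, 42.2 and 9.31 CPM, the last from 5 UMIs, and DU102 was 4.54 times control (1.90 to 14.2).

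Type I interferon-induced genes were higher in DU101 than in DU102. Of 29 measured, 14 were higher and none lower, where 3.14% of all genes were higher, with a median log2 ratio of 0.56. Isg15, a ubiquitin-like protein, was at 239 CPM in DU101, 111 in DU102 and 172 in control, 2.15 times DU102 (1.96 to 2.35). Bst2, the tetherin that holds back budding viruses, was at 291, 143 and 161 CPM, and Ifit1, which binds viral RNA, at 68.2, 39.6 and 64.8. Ifi27l2a was at 1653, 924 and 941 CPM, Irf7, a transcription factor of this pathway, at 69.3, 39.8 and 49.8, and Rsad2, the antiviral enzyme viperin, at 41.9, 23.5 and 31.7. DU101 was the highest library for each. The number of calls was 11 of 26 in Y-linked cells and 15 of 26 among cells selected after thinning. Against control, 5 of 27 were higher in DU101 and none lower (median 0.42), or 11 of 26 in Y-linked cells. DU102 against control gave none higher and 2 lower of 26 (median −0.11), but 5 higher and none lower of 23 in Y-linked cells (median 0.28). The summed list was at 3698, 2334 and 2473 CPM in effector cells of DU101, DU102 and control, at 3148, 1869 and 2242 CPM in all cells and at 1827, 1333 and 1209 CPM in B cells, so DU101 lay above DU102 in all cells and in B cells too.

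The promoters of some of these genes hold the element that interferon-activated factors bind. The letters GAAANNGAAA were searched on both strands of 300 bases around each gene start (250 before and 50 after it; RefSeq, GRCm38.p6). Of 32851 promoters, 1131 held them (3.44%). Of the 22 genes of the list with a promoter, 12 did, namely 6 of 11 called higher in DU101 and 6 of 11 not called. So the letters did not separate called from not called genes. The promoters of 3 of the called genes are shown 5′ to 3′ on the gene's strand, with the matches, which overlap in part, in capitals. Isg15 lies at chr4:156200769-156201068 (minus strand, 3 matches), Bst2 at chr8:71537423-71537722 (minus strand, 2 matches) and Ifit1 at chr19:34640639-34640938 (plus strand, 2 matches on the other strand, read here in reverse complement). A match is a run of letters and not a site shown to be bound.
Isg15: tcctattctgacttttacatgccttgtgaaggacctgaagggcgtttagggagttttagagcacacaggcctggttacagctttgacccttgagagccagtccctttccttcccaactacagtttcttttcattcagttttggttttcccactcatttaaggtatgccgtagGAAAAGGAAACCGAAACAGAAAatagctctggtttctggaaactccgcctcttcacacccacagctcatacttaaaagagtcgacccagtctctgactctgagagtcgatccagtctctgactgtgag
Bst2: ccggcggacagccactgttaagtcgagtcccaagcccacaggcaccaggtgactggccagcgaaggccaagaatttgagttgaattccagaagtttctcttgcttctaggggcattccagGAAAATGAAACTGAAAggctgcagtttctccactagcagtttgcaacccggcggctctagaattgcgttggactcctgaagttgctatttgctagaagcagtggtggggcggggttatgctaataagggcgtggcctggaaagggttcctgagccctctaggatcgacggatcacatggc
Ifit1: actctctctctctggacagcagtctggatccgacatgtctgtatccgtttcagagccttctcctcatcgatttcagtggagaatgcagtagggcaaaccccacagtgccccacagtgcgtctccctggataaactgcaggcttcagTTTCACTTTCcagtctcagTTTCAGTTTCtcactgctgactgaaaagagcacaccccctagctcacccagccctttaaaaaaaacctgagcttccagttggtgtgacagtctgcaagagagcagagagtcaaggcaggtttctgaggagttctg

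Heat shock genes, listed together with genes of tissue dissociation, were also higher in DU101 than in DU102. With 1 library a group, handling of the tissue cannot be told apart from treatment, and its part was not tested. Of 15, 10 were higher and none lower, against 3.14% higher over all genes, with a median log2 ratio of 0.73. Hsph1, a partner of the chaperone HSP70, was at 353 CPM in DU101, 152 in DU102 and 279 in control, 2.32 times DU102. Its companions Hspd1 (388, 204 and 287 CPM) and Hspe1 (1050, 574 and 728), the mitochondrial chaperonin genes, and Dnaja1 (1105, 573 and 791), an HSP70 cochaperone, were in the same order. Chordc1, a cochaperone of HSP90, was at 174, 75.3 and 139 CPM. Hspb1, a small heat shock protein gene, stood apart, at 92.4, 13.3 and 7.12 CPM, 6.94 times DU102 and 13.0 times control. Each of these was highest in DU101. Against control 1 was higher and 1 lower of 15 in DU101 (median 0.40), but 9 of 15 were higher in Y-linked cells. In DU102, 1 was higher and 3 were lower of 15 (median −0.34); in Y-linked cells the median was 0.22, and Hsph1 was 1.41 times control. In B cells Hsph1 was at 122 CPM in DU101 and 87.8 in DU102, and Chordc1 at 64.1 and 59.3. Dnaja1 was at 349 and 393 there, Hspd1 at 151 and 199 and Hspe1 at 464 and 495. In these B cells the B and plasma cell list made up 325352 CPM in DU101 and 77097 in DU102. This lowers the CPM of other genes more in DU101, so these values cannot tell the direction of the 5 genes in B cells.

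**Figure D5:**
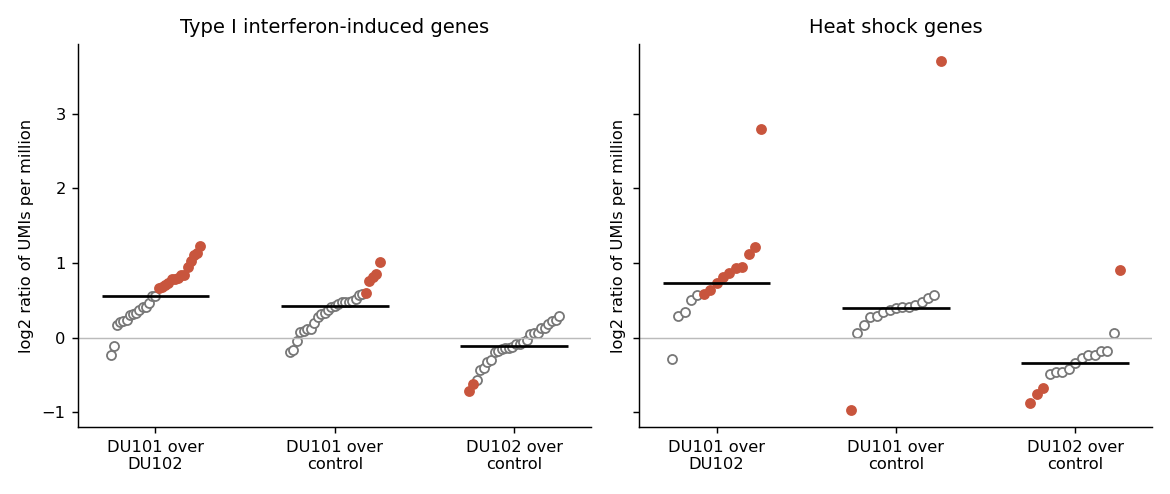
Log2 ratios of CPM of single type I interferon-induced genes (left) and heat shock genes (right) in effector CD8 T cells for DU101 over DU102, DU101 over control and DU102 over control. Filled dots are genes called by size, open dots are not called, and bars are medians (0.56, 0.42 and −0.11 for interferon-induced genes, 0.73, 0.40 and −0.34 for heat shock genes).

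Of 13 mitochondrially encoded genes, 4 were lower in DU101 than in control (median log2 ratio −0.46) and 1 in DU102 (−0.32), none higher. They summed to 21677 CPM in DU101, 24525 in DU102 and 31393 in control, and the part of this difference in the others was not tested. No call was made among 16 glycolysis or 28 nuclear oxidative phosphorylation genes in either comparison with control, apart from 1 glycolysis gene higher and 1 lower in DU101 among Y-linked cells, nor among 15 MHC class I genes in DU101 against control. The T cell receptor beta variable segments differed between libraries. Among effector cells with exactly 1 segment detected (305 in DU101, 261 in DU102 and 84 in control), Trbv1 was found in 5.6, 18.0 and 19.0% and Trbv3 in 5.2, 13.8 and 9.5%. Trbv2 was found in 15.7, 4.2 and 3.6%, and Trbv13-1 in 11.8, 3.1 and 3.6%. Trbv19 was found in 10.5, 15.7 and 15.5%. DU101 stood apart from the other libraries in Trbv1, Trbv2 and Trbv13-1. No clones were identified, and with 1 library a group these shares have no replicate check.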

How the data were processed

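Raw counts of UMIs per gene and barcode, as deposited by the authors, were read from the matrices of the 3 libraries (1 a group). Per the file headers Cell Ranger 6.0.0 made them; the submitters' processing notes give Cell Ranger 2.1.1 with mm10, and no annotation release is named. No barcode had fewer than 500 UMIs as deposited. The authors' log2 values by cluster were left aside.

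Cells were selected on raw UMIs, and doublets (Scrublet in scanpy 1.11.5) were kept. The members and gene lists were chosen with earlier results of these data known. UMIs were summed by library and cell set and scaled to CPM. Intervals are exact at 95% and cover counting error only. Those of CPM and of ratios treat UMIs as independent counts and leave out the spread between cells and between mice. CD8 T cells without Ccl5 passed the same rule with 0 Ccl5 UMIs. Sums of cell sets were tested with edgeR 4.0.16 (quasi-likelihood, TMM, filterByExpr, library as a block) in R 4.3.3, with DESeq2 1.42.0 as an alternative, and the procedure was tested on simulated data.

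Named genes were the 10 furthest higher and the 10 furthest lower by the interval end nearest to 1 (at least 50 UMIs and 50 CPM), or by log2 fold change among genes that passed edgeR in the same direction in 3 libraries, besides list members and label markers. Mitochondrial, ribosomal, haemoglobin, receptor segment, hepatocyte and sex-linked genes, numbered gene models and genes of the rule were left out. The limit of 2 times the B cell level, from which the genes named between libraries were taken, was chosen after seeing the data. Not every gene that passed it was named. Of the list members, 4 had no row in the matrices. Alternatives covered the selection, scaling, minimum of UMIs, fold limit and tool. The other software was Python 3.11.15 with numpy 2.4.6, scipy 1.17.1, pandas 2.3.3 and matplotlib 3.10.9. Promoter sequences are from RefSeq.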

Additional observations from a re-analysis of the deposited data

Results flagged for a closer look

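Some genes were called in opposite directions against control in effector CD8 T cells and in CD8 T cells without Ccl5. The difference between the cell sets was not tested, and 151 control cells without Ccl5 stand behind each value of the second kind. In DU101 against control, the log2 ratio in effector cells was 0.61 for Apoe, 0.66 for C1qa, 1.31 for C1qb, 0.69 for Ifi30 and 0.64 for Ifitm3. In cells without Ccl5 it was −0.93 for Apoe, −1.33 for C1qa, −0.62 for C1qb, −0.71 for Ifi30 and −0.85 for Ifitm3. Apoe, C1qa and C1qb are macrophage genes, and the macrophage list stood at 2123, 2056 and 1548 CPM in effector cells of DU101, DU102 and control.

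In DU102 against control, the log2 ratio of C1qb was 0.87 in effector cells and −1.95 in cells without Ccl5. For Cxcl10 it was −0.92 in effector cells (62.8 against 119 CPM) and 1.21 in cells without Ccl5 (34.6 against 14.9 CPM), where 35 and 16 UMIs were counted. For Ifitm1 it was −0.89 in effector cells and 1.02 in cells without Ccl5.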

How the results depend on the processing

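No paired analysis was possible because each group has 1 library. The share of effector cells over control kept its direction under every alternative and was 2.55 in DU102 with cells selected after thinning (2.19 otherwise). Counts did not keep their balance of higher to lower. DU101 against control (357 higher, 345 lower) gave 536 higher with cells weighted alike, 558 lower in the scaling without mitochondrial, ribosomal, haemoglobin and immunoglobulin genes, and 547 lower with no minimum of UMIs. At least 200 UMIs left 149 and 73, 2-fold 161 and 80, and 2 times the B cell level 167 and 106. DU102 against control (359, 178) gave 231 and 294 in that scaling, 574 and 328 with cells weighted alike, 298 lower with no minimum, and 108 and 38, 126 and 39, and 98 and 59 under the last 3 limits. DU101 against DU102 (294, 524) gave 474 higher with no minimum, and 121 and 186, 95 and 114, and 160 and 137 under them.

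Without the library block (no replicate block), 249 genes rose and 233 fell against cells without Ccl5, 1002 fell against NK cells, and 14 and 20 (Pdcd1), 1 and 11 (Gzmk) and 1 and 1 (Cxcr6) were called. DESeq2 gave 220 and 229, 654 and 609, 15 and 34, 10 and 36, and 16 and 79 in the same order. Without the filter on low counts, 47, 58 and 45 rose with Pdcd1, Gzmk and Cxcr6; without thinning, 216 and 224, 334 and 381, and 123 higher. Leaving out 1 library gave 356 to 512 and 345 to 510 against cells without Ccl5, 1107 to 1517 and 1102 to 1327 against NK cells, 41 to 72 and 62 to 137 with Pdcd1, 39 to 102 and 123 to 210 with Gzmk, and 7 to 95 and 40 to 157 with Cxcr6; the lowest counts of the splits came without DU101.

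Of the genes named or called in lists, 30 of 68 (DU101 against control), 21 of 58 (DU102 against control) and 50 of 74 (DU101 against DU102) kept the same call under every alternative. Log2 ratios that turned, for causes that were not tested, were in DU102 against control in Y-linked cells Cd244a −0.27, Chordc1 0.40, Gbp9 0.28, Gzma −0.55, Hsph1 0.49, Id3 0.69, Iigp1 0.57, Itgae 1.36, P2rx7 0.083, Tnfrsf9 −0.18, Tnfsf14 0.94 and Wfdc17 0.020. Klra7 turned to −1.84 after thinning and −0.75 without innate-like cells. In DU101 against control Chil3 turned to 0.34 without doublets and 0.44 after thinning, and Cx3cr1 (−0.15), Ifitm1 (0.26) and Klra7 (−0.43) turned after thinning, as did Birc5 (−0.064) in DU101 against DU102. With 71 Y-linked control cells, comparisons restricted to them rest on few UMIs.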
